A study of Mus musculus with 24 samples.

Results

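The effect of the CBP KIX mutation on gene expression was examined in 1 learning task, the Morris water maze (MWM), by comparing 3 libraries of CBP KIX/KIX mice with 3 libraries of wild-type (WT) mice. The 6 libraries were taken from the 24 of the study by their labels for genotype and task. They hold total RNA, depleted of ribosomal RNA, of the dorsal hippocampus of C57BL/6J mice labelled as male and aged 2 to 4 months, collected 1 h after the last trial of 3 days of training. WT mice were littermates from heterozygous matings, and CBP KIX/KIX mice carry point mutations in the KIX domain of both copies of *Crebbp*. The mutation is present in every cell from conception on, so that effects on development and on the response to training cannot be told apart in this comparison. The libraries are labelled as separate samples without the number of mice in each, and p-values measure the spread between these samples. Beside them stand 3 WT homecage libraries of the same experiment (RNA-Seq 1) and, from a second experiment (RNA-Seq 2) on polyA-selected RNA, 4 WT and 4 CBP KIX/KIX libraries after contextual fear conditioning (CFC) and 3 WT and 4 CBP KIX/KIX homecage libraries. Task, library type and sequencing run change together between the experiments and cannot be told apart.

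CBP is a transcriptional coactivator and acetyltransferase that is brought to promoters by sequence-specific transcription factors. Its KIX domain is a docking surface for CREB phosphorylated after neuronal activity and for other activators such as c-Myb. In the hippocampus, CREB with CBP is known for switching on immediate early genes. Its regulation of the clock genes of the period family is known from the suprachiasmatic nucleus, the site of the master clock. The core of the circadian clock is a loop in which CLOCK and BMAL1 activate their own repressors.

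The total count lay between 58740625 and 65709282 in the WT MWM libraries and between 38174044 and 64048455 in the CBP KIX/KIX MWM libraries, where replicate 2 was the shallowest of the 6. In these libraries a floor of 3 counts equals 0.0457 to 0.0786 CPM (counts scaled to the size of the library), which covers counting error only. Of 51826 genes in the table, 21319 had enough counts to be tested and 30507 had not. Levels are given as CPM after upper-quartile normalization of the 6 libraries, and a log2 fold change is that of CBP KIX/KIX over WT. Markers of the dorsal hippocampus were present in all 6 libraries, with 337 to 542 CPM of the CA1 marker *Fibcd1*. Markers of the choroid plexus, a neighbouring tissue, varied most between libraries among the marker lists examined. The 16 of them summed to 178, 554 and 1580 CPM in WT and to 1146, 2611 and 195 CPM in CBP KIX/KIX replicates 1 to 3, so that both groups held a low and a high library.

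The 3 point mutations cannot be seen in counts per gene, and the level of the mutated transcript was measured first. *Crebbp*, which lies on chromosome 16 from 4081328 to 4213997 (GRCm38), had 163, 194 and 143 CPM in WT and 163, 141 and 164 CPM in CBP KIX/KIX MWM mice. The groups overlapped, and the log2 fold change was −0.10 (standard error 0.11) with an adjusted p of 0.735 (edgeR's quasi-likelihood test, with the Benjamini-Hochberg correction taken over every gene in the fit). *Ep300*, the close relative of CBP, differed by −0.17 (standard error 0.10) with an adjusted p of 0.525. Over 23 genes that encode CREB family members, their coactivators and acetyltransferases, the median log2 fold change was −0.0034, and 1 was lower and 1 higher at an unadjusted p under 0.05, against 5.41% and 5.11% of all genes. These were *Ncoa3*, a nuclear receptor coactivator, at −0.25 (standard error 0.09) and *Atf2*, a CREB-related factor, at 0.19 (standard error 0.07). The 15 genes of transcription factors known to bind the KIX domain had a median of −0.0015, with values from −0.33 to 0.69. At an unadjusted p under 0.05, 2 of the 15 were lower and 2 higher, against the same shares of all genes. Leaving out 1 library gave 1 to 4 lower and 0 to 3 higher.

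Across all genes, the genotype effect in the MWM was small in most and past the adjusted threshold in 2. By edgeR's quasi-likelihood test, 2 of 21319 genes had an adjusted p under 0.05, which is 0.00938% of the genes tested, and both were lower in CBP KIX/KIX mice. At an unadjusted p under 0.05, 1153 genes (5.41%) were lower and 1089 (5.11%) were higher. The CPM of the groups did not overlap in 1804 genes (8.46%) that were lower in every CBP KIX/KIX library and in 1900 genes (8.91%) that were higher in every one. The median log2 fold change was −0.01, with quartiles at −0.14 and 0.13. Among genes at an unadjusted p under 0.05, 86 were lower by more than 1 on the log2 scale and 48 were higher by more than 1. With DESeq2 on the same genes, 43 had an adjusted p under 0.05, 24 lower and 19 higher, and the 2 genes of the edgeR test were among them. In all 43 the groups did not overlap. Leaving out 1 library at a time gave 0 to 5 genes with the edgeR test, the lowest without CBP KIX/KIX replicate 1 and the highest without CBP KIX/KIX replicate 3. The count of higher genes at an unadjusted p was 552 without WT replicate 1 and 534 without CBP KIX/KIX replicate 2.

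**Figure D1:**
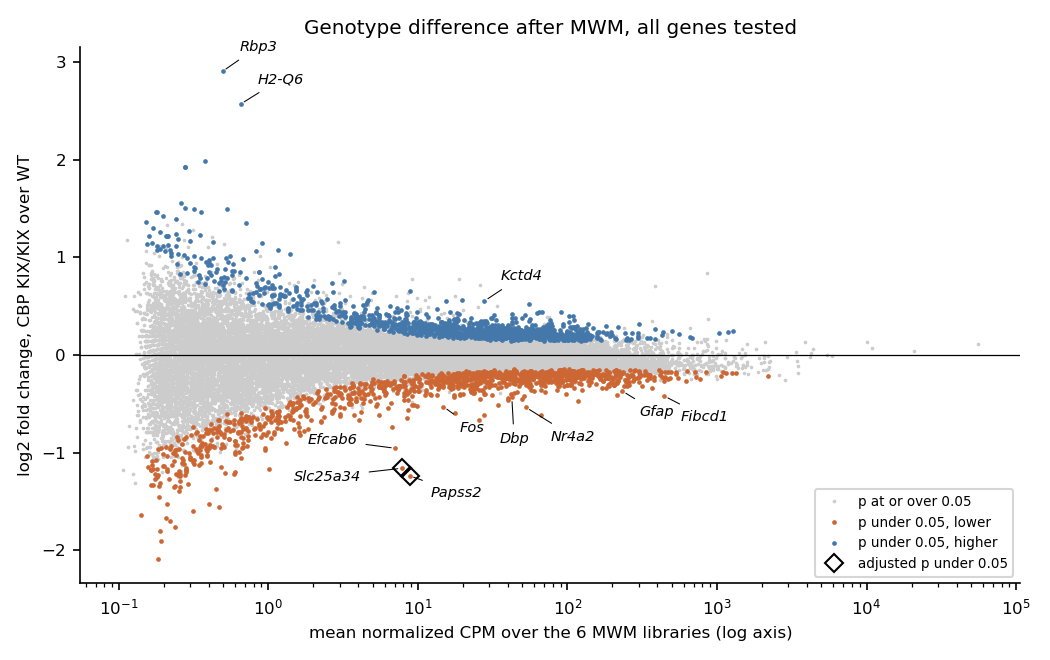
Log2 fold change of CBP KIX/KIX over WT MWM mice against the mean level in CPM (log axis) for the 21319 genes tested. Orange and blue points are the 1153 lower and 1089 higher genes at an unadjusted p under 0.05, and diamonds mark the 2 genes at an adjusted p under 0.05.

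*Slc25a34* and *Papss2* fell by more than 1 on the log2 scale. SLC25A34 is an orphan member of the mitochondrial carrier family, and PAPSS2 makes PAPS, the activated sulfate that sulfotransferases use. *Slc25a34* (chromosome 4, 141618824 to 141623821) had 9.62, 12.2 and 10.6 CPM in WT and 4.94, 4.78 and 4.79 CPM in CBP KIX/KIX MWM mice. All 3 mutant libraries lay below the lowest WT library. The log2 fold change was −1.16 (standard error 0.12) with an adjusted p of 0.00887. *Papss2* (chromosome 19, 32595790 to 32667187) had 10.8, 13.2 and 13.0 CPM in WT and 5.53, 6.31 and 4.09 CPM in CBP KIX/KIX MWM mice, again without overlap. Its log2 fold change was −1.24 (standard error 0.15) with an adjusted p of 0.0291 by the same edgeR test. In the WT homecage libraries of the same experiment *Slc25a34* had 14.7, 17.6 and 9.11 CPM and *Papss2* 8.41, 12.5 and 12.2 CPM, all above the mutant MWM libraries.

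Both genes were also lower in the mutant libraries of RNA-Seq 2, which share no sample with those of the MWM. After CFC, *Slc25a34* lay between 4.10 and 5.56 CPM in 4 WT and between 1.78 and 2.67 CPM in 4 CBP KIX/KIX libraries, a log2 fold change of −1.16. *Papss2* lay between 16.3 and 20.1 CPM in WT and between 6.86 and 8.86 CPM in CBP KIX/KIX libraries after CFC, a log2 fold change of −1.20. In homecage libraries of RNA-Seq 2 the log2 fold changes were −1.05 and −0.93. The groups were separate for both genes in all 3 pairs. Leaving out 1 MWM library kept the log2 fold change of *Slc25a34* between −1.24 and −1.07 and that of *Papss2* between −1.37 and −1.07, but the adjusted p of *Slc25a34* by edgeR was 0.117 without CBP KIX/KIX replicate 1. For *Papss2* it was 0.25 without CBP KIX/KIX replicate 1, 0.176 without WT replicate 2 and 0.167 without WT replicate 3. With the 3 WT homecage libraries of the experiment added to the edgeR fit neither passed the threshold (adjusted p = 0.248 for *Slc25a34* and 0.0876 for *Papss2*), and with a filter of at least 1 CPM in 3 libraries *Papss2* did not (0.0834), while the log2 fold changes stayed between −1.24 and −1.14. Related genes were examined as lists. At an unadjusted p under 0.05, 5.41% of all genes were lower and 5.11% higher. Of 43 genes of the mitochondrial carrier family 4 were lower by this measure, *Slc25a34* itself among them, and none was higher. Their median log2 fold change was −0.0087, and 2 were lower without CBP KIX/KIX replicate 2. Of 38 genes of sulfate activation and transfer 4 were lower, *Papss2* itself among them, and none was higher. Their median was −0.05, and 10 were lower without CBP KIX/KIX replicate 3. Beside *Papss2* these include *Chst11*, a chondroitin sulfotransferase, at −0.26 (standard error 0.08).

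**Figure D2:**
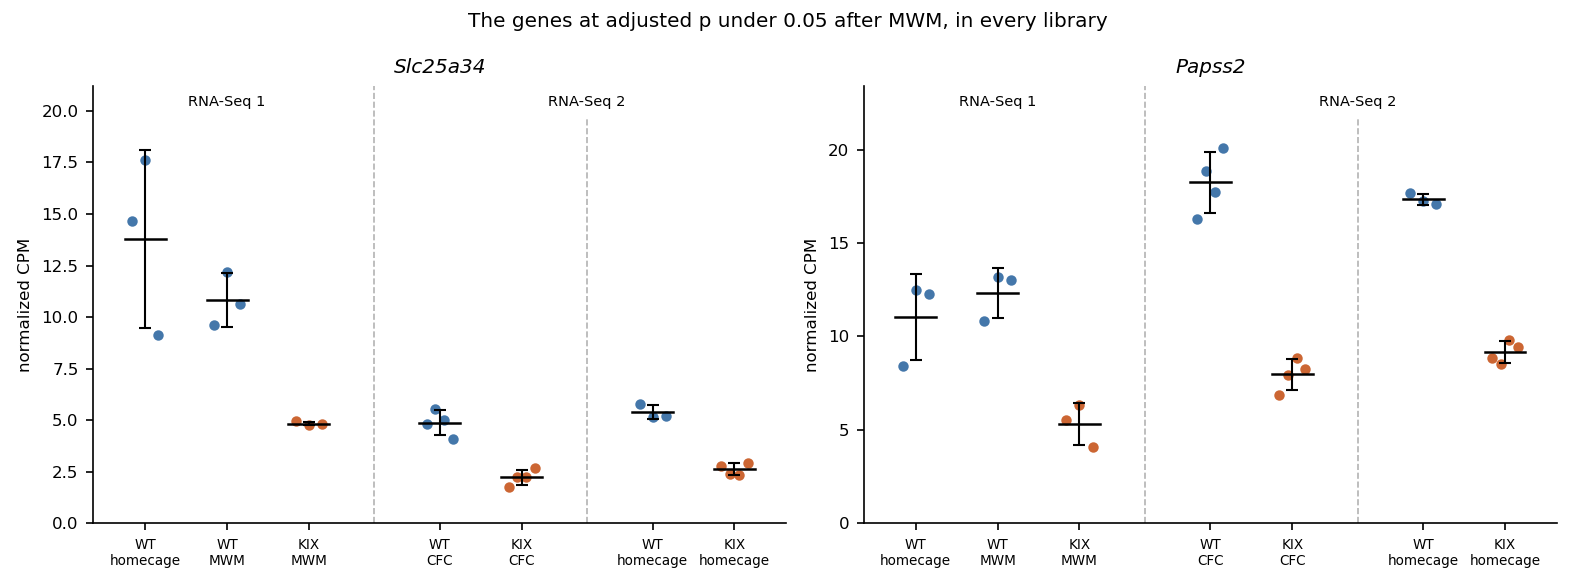
Normalized CPM of *Slc25a34* (left) and *Papss2* (right) in every library, with the mean and SD of each group, for WT (blue) and CBP KIX/KIX (orange) mice. The experiments were normalized separately, so levels compare only between dashed lines. In every pair the mutant libraries lie below all WT libraries.

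The bases just upstream of both genes are shown because these are the genes that fell. They are RefSeq promoters of GRCm38.p6, each the 120 bases before the annotated start, for *Papss2* the first of 2 starts.
Slc25a34, chr4:141623835-141623954, minus strand: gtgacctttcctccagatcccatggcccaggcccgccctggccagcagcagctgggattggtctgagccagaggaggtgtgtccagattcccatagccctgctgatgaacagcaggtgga
Papss2, chr19:32595595-32595714, plus strand: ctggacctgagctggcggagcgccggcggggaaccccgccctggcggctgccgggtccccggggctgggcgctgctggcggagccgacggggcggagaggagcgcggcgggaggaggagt
Neither stretch held the cyclic AMP response element to which CREB binds (TGACGTCA) or the short form of this element (TGACG on either strand). Both also lacked the E-box to which CLOCK and BMAL1 bind (CACGTG). Sites further from the start, or at the second start of *Papss2*, are not covered by these 120 bases. The short form lies within the full element, so that a promoter with the full element counts for both.

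None of the genes next in rank passed the adjusted threshold in the edgeR test. The first of them was *Rbp3*, described below. *Efcab6*, a calcium-binding protein gene, had 10.2, 8.91 and 8.78 CPM in WT and 4.82, 5.95 and 3.83 CPM in CBP KIX/KIX mice, a log2 fold change of −0.96 (standard error 0.15) with an adjusted p of 0.133. *Kctd4*, a potassium channel tetramerization domain gene, had 20.5, 24.05 and 23.3 CPM in WT and 34.5, 32.4 and 32.6 CPM in mutant mice, a log2 fold change of 0.55 (standard error 0.08) with an adjusted p of 0.125. Both were separate between the groups and had adjusted p-values of 9.84e-06 and 1.9e-05 with DESeq2. *Kctd4* overlaps *Gtf2f2* on the opposite strand, whose log2 fold change was 0.32. *Efcab6* was at −0.35 after CFC and −0.37 in homecage. *Kctd4* was at 0.17 after CFC and, in the other direction, at −0.15 in homecage.

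*Rbp3*, the retinoid-binding protein of the photoreceptor matrix, had the highest log2 fold change of the genes named here, at 2.90 (standard error 0.40) and an adjusted p of 0.0753. It rested on 8, 8 and 5 counts in WT and 64, 32 and 43 counts in CBP KIX/KIX MWM libraries, and the WT homecage libraries of the experiment held 10, 17 and 10. In RNA-Seq 2 it had 0 to 34 counts in WT homecage and 1 to 25 counts in CBP KIX/KIX homecage libraries, and 1 to 8 counts over both CFC groups. Its WT counts alone were too low for the filter, so that it was tested only through the mutant libraries where it was high. Of the 28 photoreceptor genes 11 were too low to be tested, and no count over the other 17 is given for this reason.

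Other genes of lowest p among those that were lower in every mutant library were *Plxnd1*, a semaphorin receptor, at −0.44 (standard error 0.08), the ligand gene *Wnt4* at −0.52 (standard error 0.10), *Scube1* at −0.51 (standard error 0.10), *Gfap*, the intermediate filament of astrocytes, at −0.37 (standard error 0.07), and *Ak4*, a mitochondrial adenylate kinase, at −0.38 (standard error 0.08). *Gfap* had 279.6, 249 and 258 CPM in WT and 211, 204 and 195 CPM in CBP KIX/KIX mice. Among those that were higher in every mutant library were the cell adhesion gene *Alcam* at 0.36 (standard error 0.07), *Lrrtm4*, a postsynaptic organizer, at 0.47 (standard error 0.09), *Cdh8*, a cadherin, at 0.35 (standard error 0.07), and *Ano3*, of the anoctamin family, at 0.44 (standard error 0.09). *Alcam* had 90.0, 102 and 99.2 CPM in WT and 122, 130.2 and 122 CPM in CBP KIX/KIX mice. None of these had an adjusted p under 0.4 in the edgeR test, and all 9 had one under 0.05 with DESeq2. *Gfap* and *Scube1* were at −0.22 and −0.20 after CFC. In homecage they were at 1.32 and 0.82, opposite to the MWM, and at 1.30 and 0.61 without CBP KIX/KIX homecage replicate 3. The homecage values of *Plxnd1*, *Wnt4* and *Ak4* were −0.43, −0.29 and −0.05. Those of *Alcam*, *Lrrtm4*, *Cdh8* and *Ano3* were 0.19, 0.09, 0.06 and 0.23. *Gfap* is also among the 12 astrocyte markers, of which 6 were lower and 6 higher in value after the MWM (median 0.03). At an unadjusted p under 0.05, 2 of the 12 were lower and 2 higher, against 5.41% and 5.11% of all genes.

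Marker genes of the hippocampal subfields differed in opposite directions. All 5 tested markers of CA1 pyramidal neurons were lower in value, 4 of them at an unadjusted p under 0.05, and 7 of 8 markers of dentate granule neurons were higher in value, 6 of them at an unadjusted p under 0.05, against 5.41% lower and 5.11% higher over all genes. None passed the adjusted threshold in the edgeR test. *Fibcd1*, an endocytic receptor gene used as a CA1 marker, had 506, 542 and 476 CPM in WT and 374, 429 and 337 CPM in CBP KIX/KIX mice (−0.42, standard error 0.09). *Mpped1* had 425, 410.4 and 400.2 CPM in WT and 317, 303 and 359 CPM in mutant mice (−0.33, standard error 0.08), and *Lefty1* 23.4, 19.6 and 17.2 CPM in WT and 15.1, 14.9 and 15.2 CPM in mutant mice (−0.41, standard error 0.11). The groups were separate in these 3. The CA1 markers summed to 1211, 1197 and 1057 CPM in WT and to 888, 923 and 905 CPM in CBP KIX/KIX libraries.

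In the dentate list, *Stxbp6*, which binds SNARE proteins, had 37.5, 36.5 and 36.8 CPM in WT and 48.1, 46.4 and 49.7 CPM in CBP KIX/KIX mice (0.38, standard error 0.07). *Dock10*, a guanine nucleotide exchange factor, had 65.2, 69.1 and 66.3 CPM in WT and 80.4, 90.9 and 85.2 CPM in mutant mice (0.35, standard error 0.07). *Tdo2*, tryptophan dioxygenase, had 2.13, 2.23 and 2.85 CPM in WT and 4.32, 3.49 and 4.25 CPM in mutant mice (0.75, standard error 0.16), and the groups were again separate in these 3. *C1ql2*, a synaptic organizer of mossy fibers, differed by 0.29 (standard error 0.10) with overlapping groups. Together the dentate markers summed to 507, 501 and 485 CPM in WT and to 590, 534 and 629 CPM in CBP KIX/KIX libraries. Without CBP KIX/KIX replicate 1, 3 of the 8 were higher at an unadjusted p under 0.05. In the WT homecage libraries of the same experiment *Fibcd1* had 493, 672 and 308 CPM and *Stxbp6* 42.6, 42.6 and 51.3 CPM, a range that reached over both MWM groups for *Fibcd1* and over the mutant group for *Stxbp6*. In bulk tissue fewer cells of a type and less RNA per cell cannot be told apart, and the share of each subfield in the dissected tissue was not measured. The CA1 list had a median log2 fold change of −0.33 after the MWM, −0.20 after CFC and −0.40 in homecage, with all 5 markers lower in value each time. The dentate list had a median of 0.29 after the MWM, 0.06 after CFC and −0.19 in homecage. Of the 7 CA3 and CA2 markers 4 were lower and 3 higher in value, with a median of −0.02. Their log2 fold changes ran from −0.29 (standard error 0.07) in *Rgs14*, a marker of CA2, to 0.56. At an unadjusted p under 0.05, 2 of them were lower and 1 higher, against 5.41% and 5.11% of all genes.

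**Figure D3:**
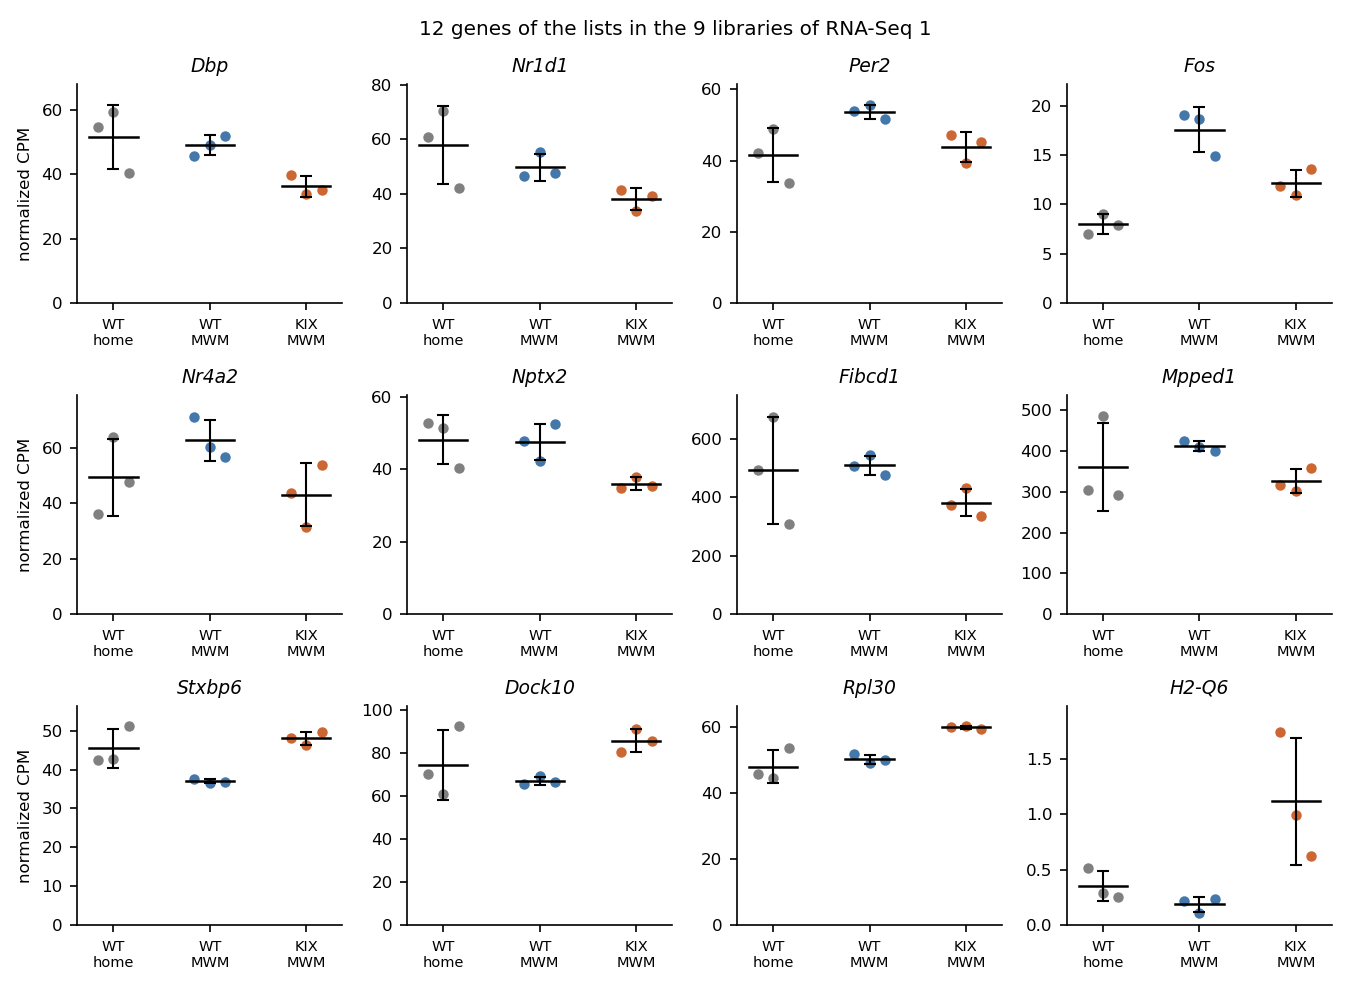
Normalized CPM of 12 genes in the 9 libraries of RNA-Seq 1, with the mean and SD of each group of 3: WT homecage (grey), WT MWM (blue) and CBP KIX/KIX MWM (orange). The groups after the MWM are separate in each gene shown, and *Fos* in CBP KIX/KIX mice lies between its levels in both WT groups.

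The repressors and outputs of the circadian clock were lower in value in 14 of 15 genes, with a median log2 fold change of −0.20. At an unadjusted p under 0.05, 7 of the 15 were lower and none was higher, against 5.41% and 5.11% of all genes. The groups were separate in 6, all lower, against 8.46% of all genes. *Dbp*, a clock output factor, had 45.7, 49.1 and 51.9 CPM in WT and 39.7, 33.8 and 34.9 CPM in CBP KIX/KIX mice (−0.44, standard error 0.08, adjusted p = 0.427 by edgeR and 0.0093 by DESeq2). *Nr1d1*, which encodes the repressor REV-ERB alpha, had 46.3, 55.3 and 47.5 CPM in WT and 41.4, 33.5 and 39.2 CPM in mutant mice (−0.38, standard error 0.10). The 3 period genes were at −0.31 (*Per1*), −0.29 (*Per2*) and −0.24 (*Per3*). *Per2* had 54.0, 55.6 and 51.7 CPM in WT and 47.2, 39.2 and 45.1 CPM in CBP KIX/KIX mice, and *Per1*, with 106, 128 and 97.6 CPM in WT and 93.6, 75.1 and 99.2 CPM in mutant mice, overlapped between the groups. *Dbp* and *Nr1d1* overlap *Sphk2* and *Thra* on the opposite strand, which were at −0.09 and −0.06.

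The activators of the clock had a median near 0, at −0.0096. *Clock* had 51.6, 58.3 and 59.3 CPM in WT and 61.4, 69.9 and 65.3 CPM in CBP KIX/KIX mice (0.22, standard error 0.08), and *Arntl*, which encodes BMAL1, was at 0.10 (standard error 0.09), and 1 of the 11, *Clock*, was at an unadjusted p under 0.05. The repressors and outputs had a median of −0.17 after CFC and −0.27 in homecage, with 14 and 13 of the 15 lower in value. *Dbp* was at −0.49 after CFC and −0.70 in homecage, and *Nr1d1* at −0.30 and −0.43.

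Transcription factors induced by neuronal activity were lower in value in 24 of 29 genes, with a median log2 fold change of −0.18. At an unadjusted p under 0.05, 9 were lower and none was higher, against 5.41% and 5.11% of all genes, and 4 were lower with separate groups, against 8.46% of all genes. *Fos* had 19.1, 18.7 and 14.9 CPM in WT and 11.8, 10.9 and 13.6 CPM in CBP KIX/KIX mice (−0.53, standard error 0.12, adjusted p = 0.437 by edgeR and 0.0161 by DESeq2). WT homecage mice of the same experiment had 7.03, 9.01 and 7.88 CPM, below every MWM library of either genotype. *Nr4a2*, an orphan nuclear receptor gene, had 71.0, 60.1 and 56.8 CPM in WT and 43.8, 31.3 and 53.9 CPM in mutant mice (−0.54, standard error 0.16), and *Egr2* 12.2, 7.25 and 5.99 CPM in WT and 4.48, 4.07 and 6.47 CPM in mutant mice (−0.74, standard error 0.25) with overlapping groups. *Nr4a2* is also among the neocortical and subicular markers described below, so it counts in both lists. *Fosb* and *Junb* were at −0.38 and −0.29. *Egr1* and *Npas4* were at −0.11 and 0.16 with standard errors of 0.15 and 0.23. The direction of both depended on 1 library: without CBP KIX/KIX replicate 2 *Egr1* was at 0.02, and without WT replicate 1 *Npas4* was at −0.03. Without CBP KIX/KIX replicate 2 or without WT replicate 1, the count at an unadjusted p under 0.05 was 4 of 29 genes in place of 9, and it was 5 without WT replicate 2.

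The effector genes downstream of activity were mixed, with 8 lower and 3 higher of 38 at an unadjusted p under 0.05, against 5.41% and 5.11% of all genes, and a median of −0.08. The lower count was 3 without WT replicate 1, 4 without CBP KIX/KIX replicate 2 and 5 without CBP KIX/KIX replicate 1. *Nptx2*, a neuronal pentraxin that clusters AMPA receptors, had 47.6, 42.3 and 52.3 CPM in WT and 34.6, 37.9 and 35.3 CPM in CBP KIX/KIX mice (−0.40, standard error 0.09). *Pcsk1*, a prohormone convertase, was at −0.31 (standard error 0.11). *Bdnf*, the neurotrophin, had 26.6, 28.8 and 29.2 CPM in WT and 34.2, 32.5 and 31.8 CPM in mutant mice and was higher in every mutant library (0.22, standard error 0.07), as was *Pcp4*, which binds calmodulin, at 0.65 (standard error 0.16). After CFC the transcription factors had a median of −0.13, *Fos* was at −0.49 and *Nptx2* at −0.58, while *Bdnf* was at −0.15. In homecage the transcription factors had a median of 0.44, and of −0.06 without CBP KIX/KIX homecage replicate 3, whose *Fos* level of 116.9 CPM stood against 1.83 to 4.76 CPM in the other 3. The effectors had a homecage median of 0.35, and of 0.10 without that library, with 32 of 38 higher in value when it was included. *Nptx2* was at 1.84 and *Bdnf* at 1.19 in homecage, opposite to *Nptx2* after both tasks, and at 1.55 and 0.98 without replicate 3. CBP KIX/KIX homecage replicate 4 was also high, with 164 CPM of *Nptx2* and 127 CPM of *Bdnf* against at most 27.4 and 45.1 CPM in WT homecage libraries of RNA-Seq 2.

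The upstream sequences of some of these genes hold the motifs named above. Stretches are shown in lower case with the short form of the cyclic AMP response element (*Fos*, *Nr4a2*, *Pcsk1*) or the E-box (*Per1*, *Ciart*) in capitals, read on the strand of the gene, so that CGTCA is the short form on the other strand. In *Pcsk1* the first capital run is the full element.
Fos, chr12:85473810-85473849, plus strand: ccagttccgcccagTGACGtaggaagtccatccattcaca
Nr4a2, chr2:57124103-57124208, minus strand: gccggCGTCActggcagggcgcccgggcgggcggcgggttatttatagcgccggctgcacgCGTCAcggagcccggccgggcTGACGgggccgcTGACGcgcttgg
Pcsk1, chr13:75089767-75089816, plus strand: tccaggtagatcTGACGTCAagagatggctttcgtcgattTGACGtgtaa
Per1, chr11:69098769-69098808, plus strand: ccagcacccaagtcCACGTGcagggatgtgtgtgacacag
Ciart, chr3:95882258-95882353, minus strand: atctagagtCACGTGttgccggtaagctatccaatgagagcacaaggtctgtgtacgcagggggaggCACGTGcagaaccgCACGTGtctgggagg
RefSeq promoters were matched by symbol for 13053 of the symbols tested. The short form was found in the 250 bases before a start in 18 of 23 activity-induced transcription factor genes with a promoter, 14 of 28 effector genes and 5 of 13 clock repressor and output genes, against 28.1% of the genes tested. The E-box was found in 5 of the 13 clock genes against 9.22% of the genes tested. Of the genes at an unadjusted p under 0.05, 29.1% of those that were lower and 32.7% of those that were higher held the short form, and 10.3% and 9.2% held the E-box. A match is a run of letters and not a measured binding site, and genes with several starts have more chances of one.

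Cytosolic ribosomal protein genes were higher in value in 77 of 84 genes, by a small amount. Their median log2 fold change was 0.13, and 45 of the 84 were higher with separate groups, against 8.91% of all genes. At an unadjusted p under 0.05, 33 were higher and none lower, against 5.11% and 5.41% of all genes. The count was 18 without WT replicate 1, 19 without WT replicate 2 or CBP KIX/KIX replicate 2 and 21 without CBP KIX/KIX replicate 1. *Rpl30* had 51.8, 49.1 and 50.1 CPM in WT and 60.1, 60.4 and 59.5 CPM in CBP KIX/KIX mice (0.25, standard error 0.07), and *Rpl4* 174, 177 and 184 CPM in WT and 208, 211 and 211 CPM in mutant mice (0.24, standard error 0.06). Many of these genes have processed pseudogene copies and several contain small nucleolar RNA genes, so reads may be shared. Of 84 nuclear genes of the respiratory chain, 7 were higher and none lower at an unadjusted p under 0.05 (median 0.07), which became 0 without WT replicate 1, 1 without WT replicate 2, CBP KIX/KIX replicate 1 or CBP KIX/KIX replicate 2, and 12 without WT replicate 3. The ribosomal protein genes had a median of 0.02 after CFC and −0.03 in homecage. Without CBP KIX/KIX homecage replicate 3 the homecage median was 0.02, with 26 of 83 genes lower in value in place of 61.

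Genes of MHC class I and of the interferon response were higher in value in 23 of 31 genes, with a median log2 fold change of 0.26. *H2-Q6* had 0.216, 0.110 and 0.235 CPM in WT and 1.75, 0.992 and 0.622 CPM in CBP KIX/KIX mice (2.57, standard error 0.48), and its neighbour *H2-Q7* 0.150, 0.173 and 0.134 CPM in WT and 0.856, 0.458 and 0.498 CPM in mutant mice (1.99, standard error 0.40). These genes are near-identical copies, and reads may have been split between them. Both passed the filter on low counts only through the mutant libraries where they were high, so that they had to differ, and they lend no support to the counts of the list, which include them. *B2m*, the light chain of MHC class I, had 24.6, 23.9 and 25.3 CPM in WT and 32.2, 36.7 and 24.5 CPM in CBP KIX/KIX mice (0.33, standard error 0.12), with replicate 3 within the WT range. *Ifit1* had 0.698, 0.582 and 0.957 CPM in WT and 1.21, 2.26 and 0.934 CPM in mutant mice (0.90, standard error 0.34). At an unadjusted p under 0.05, 9 genes of the list were higher and none lower, against 5.11% higher over all genes, but 5 without WT replicate 2, 3 without CBP KIX/KIX replicate 2, when the median was 0.08, and 16 without CBP KIX/KIX replicate 3, when it was 0.39. The list had a median of 0.08 after CFC and 0.04 in homecage. By edgeR, 0 of 13 microglia and macrophage markers were at an unadjusted p under 0.05. Of these 13, 5 were lower in every mutant library, against 8.46% of all genes.

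**Figure D4:**
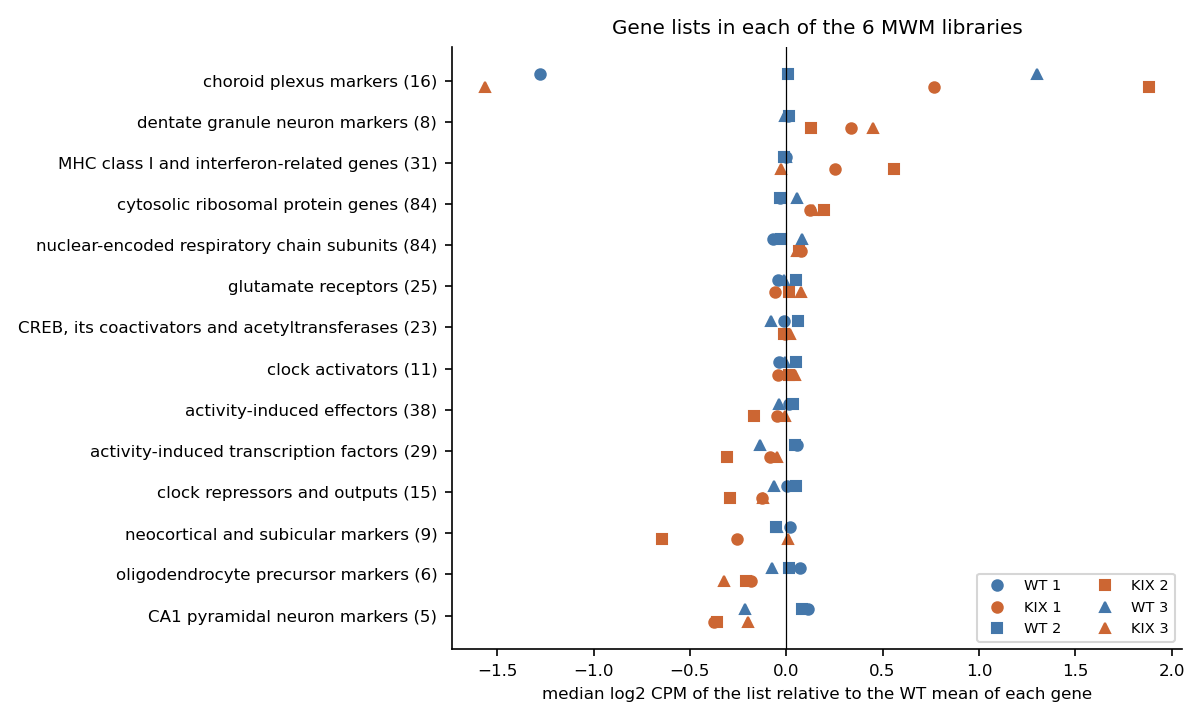
Median log2 CPM of 14 gene lists in each MWM library relative to the WT mean of each gene, with the number of genes tested in parentheses. WT libraries are blue, CBP KIX/KIX libraries orange, and the symbol shape gives the replicate number. The precursor, clock repressor, ribosomal and dentate lists separate the groups, while the choroid plexus list spreads over both.

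The remaining lists described hold other cell types and pathways. Over all genes 5.41% were lower and 5.11% higher at an unadjusted p under 0.05. Of 6 markers of oligodendrocyte precursors 3 were lower by this measure (median −0.27), including *Cspg4*, which encodes NG2, at −0.31 (standard error 0.10). Of 9 neocortical and subicular markers 3 were lower (median −0.21), or 6 without CBP KIX/KIX replicate 3, and their median relative to WT was −0.26, −0.64 and 0.01 in replicates 1 to 3. This list includes *Nr4a2*, given above with the activity-induced transcription factors. Hemoglobin genes were lower in value (*Hba-a1* −0.61, standard error 0.21), with 71.4, 57.2 and 114 CPM in WT and 43.8, 51.1 and 63.9 CPM in CBP KIX/KIX mice and overlapping groups, and without WT replicate 3 or without CBP KIX/KIX replicate 1 none of 7 globin genes was at an unadjusted p under 0.05. Of 60 cell adhesion genes 12 were higher and 5 lower, and of 36 genes of cyclic AMP and protein kinase A signalling 3 were higher and 8 lower. For cell adhesion 7 were higher and 2 lower without CBP KIX/KIX replicate 2, and 3 were lower without WT replicate 2. For cyclic AMP signalling 4 were lower and 1 higher without WT replicate 1, 5 were lower without CBP KIX/KIX replicate 2, and 1 was higher without WT replicate 2. Among the genes of cyclic AMP signalling that were lower, *Pde10a*, a phosphodiesterase, was at −0.28 (standard error 0.08) and the adenylyl cyclase gene *Adcy6* at −0.23 (standard error 0.07). All 16 choroid plexus markers were higher in value, with a median of 0.48, but none was at an unadjusted p under 0.05. Without CBP KIX/KIX replicate 2 their median was −0.34, without CBP KIX/KIX replicate 3 it was 1.03 and without WT replicate 3 it was 1.198.

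Genes near *Crebbp* are inherited together with the mutated site and were taken as a list of their own. Of 101 tested genes within 10 Mb, 6 were lower and 3 higher at an unadjusted p under 0.05, with a median of −0.05, shares near those over all genes (5.41% and 5.11%), and 2 were lower without WT replicate 1. The following 2 are named for their low p. *Clec16a*, a regulator of mitophagy, had 98.7, 102 and 89.0 CPM in WT and 112, 111 and 128 CPM in CBP KIX/KIX mice (0.28, standard error 0.08), and was at 0.35 after CFC and 0.41 in homecage. *Emp2*, a membrane protein gene, had 24.6, 20.7 and 22.7 CPM in WT and 19.998, 18.4 and 13.5 CPM in mutant mice (−0.39, standard error 0.13), and was at −0.40 and −0.27. Both were separate between the MWM groups.

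The direction of the difference followed the GC content of the gene. Protein-coding genes that were lower at an unadjusted p under 0.05 had a median GC content of 54.1% in their longest transcript, those that were higher 43.2% and the others 50.2%. In the bin of genes with the lowest GC content, of 10 equal bins, 0.196% were lower and 21.6% higher, and in the bin with the highest, 8.96% were lower and 0.785% higher. In the lowest bin the median relative to WT was 0.11, 0.26 and 0.11 on the log2 scale in CBP KIX/KIX replicates 1 to 3 and −0.10, 0.05 and 0.06 in WT replicates 1 to 3. With offsets from 10 bins of GC content, *Slc25a34* and *Papss2* were again the genes with an adjusted p under 0.05, and 1000 genes were lower and 838 higher at an unadjusted p. The clock list then had 7 lower genes and a median of −0.19, the activity-induced transcription factors 7 and −0.13, the CA1 markers 4 and −0.28, the dentate markers 6 higher and 0.28, and the ribosomal protein genes 41 higher and 0.16. Of single genes, *Bdnf* and *Clock* were at 0.13 and 0.12 with the offsets, against 0.22 each without them. *Fos* and *Dbp* were at −0.47 and −0.35, against −0.53 and −0.44. CBP KIX/KIX replicate 2, with the steepest trend, was also the shallowest library, and the part of depth or GC content in these differences was not tested beyond the offsets. Without offsets, 5.41% of all genes were lower and 5.11% higher at an unadjusted p under 0.05. On the X chromosome 81 of 720 genes (11.2%) were higher and 22 (3.06%) lower, and 52 and 23 with these offsets. Without WT replicate 1 or without CBP KIX/KIX replicate 2, 34 were higher. Among 1315 genes of the annotation class TEC, whose transcripts await experimental support, 91 (6.92%) were lower and 9 (0.684%) higher. With these offsets the counts were 156 and 9. In the fit without offsets, the lower count was 54 without WT replicate 2 and 52 without CBP KIX/KIX replicate 1.

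**Figure D5:**
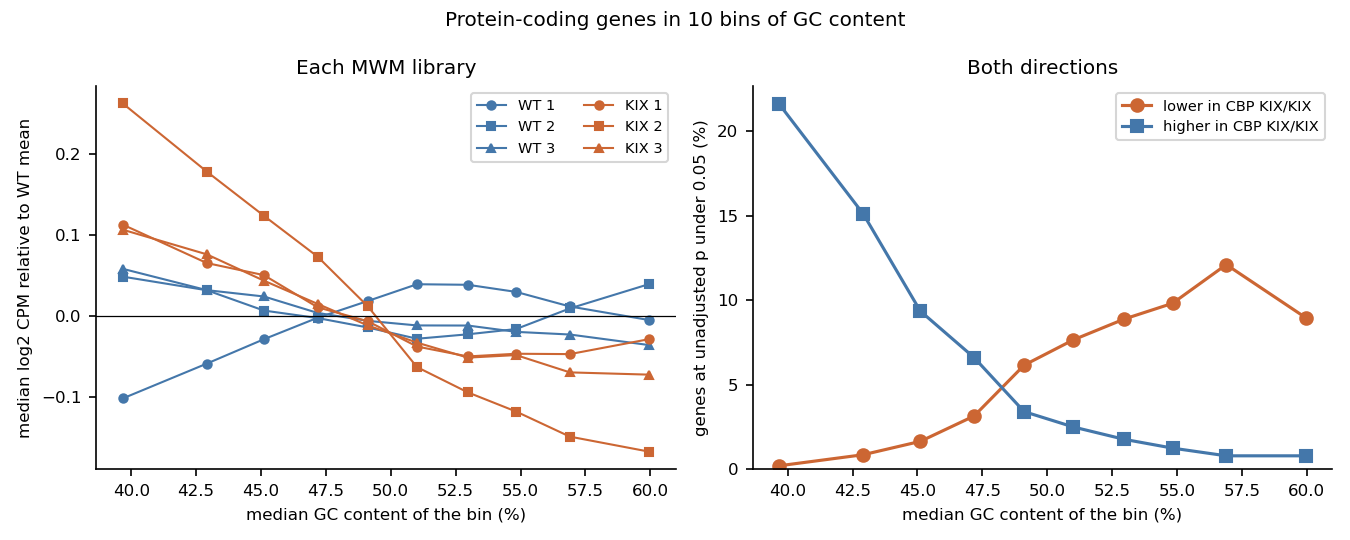
Protein-coding genes in 10 equal bins of GC content, placed at the median of each bin. Left, the median log2 CPM of each MWM library relative to WT (WT blue, CBP KIX/KIX orange). Right, the percentage of genes lower (orange) or higher (blue) at an unadjusted p under 0.05, which goes from 0.196% to 8.96% and from 21.6% to 0.785%.

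The genes of lowest p after the MWM were compared with the independent libraries of RNA-Seq 2, which share no sample with them. Of the 200 genes of lowest p with a value in both, 170 (85%) had the same sign after CFC, against 54.9% of all 17202 genes with a value. In homecage 133 of 200 (66.5%) had the same sign, against 57.2% of 17889 genes. With GC offsets in both fits the shares were 80% after CFC and 63% in homecage, against 55.5% of all genes each. Of the 42 genes of the DESeq2 test with a value after CFC, 37 had the same sign. Of the 43 with a value in homecage, 28 had the same sign.

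Whether the genotype effect differed between the tasks was tested by the interaction over the 14 libraries of both tasks. By edgeR's quasi-likelihood test 0 of 21489 genes (0%) had an adjusted p under 0.05 and 1378 an unadjusted p under 0.05. With DESeq2 the numbers were 0 and 1150. *Ak4* and *Notch3*, a Notch receptor gene, were among the 5 genes with the lowest p. *Ak4* had 83.4, 70.8 and 85.0 CPM in WT and 64.0, 59.4 and 60.1 CPM in CBP KIX/KIX MWM mice and was at 0.03 after CFC, a difference between tasks of −0.42 (standard error 0.09, adjusted p = 0.759 by edgeR). *Notch3* was at −0.43 (standard error 0.11) after the MWM and 0.12 after CFC (difference −0.55, standard error 0.13, adjusted p = 0.759 by edgeR).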

How the data were processed

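RNA was from the dorsal hippocampus. The authors aligned reads with STAR and counted them per gene with featureCounts 1.4.4 on the mouse build mm10 (GRCm38), and the values as deposited were whole, unnormalized counts per gene for 24 libraries. The strand setting of the counting is not given in the sources used here, so overlapping genes on opposite strands may share reads. Libraries were grouped by their labels. No column of per-sample values was left out (0).

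For the MWM comparison the 6 libraries were fitted with edgeR 4.0.16 in R 4.3.3: filterByExpr, upper-quartile (0.75) normalization, estimated dispersions and the two-sided quasi-likelihood test, with Benjamini-Hochberg adjustment and a threshold of 0.05. The quasi-likelihood fit was the current one (legacy=FALSE), whereas the default of this version is the legacy one, which was run as an alternative and gave 3 genes. The interaction of genotype and task was fitted over 14 libraries, and CFC and homecage pairs were fitted separately. Standard errors are the log2 fold change divided by the root of F. Normalized CPM use the same factors, and sequences come from RefSeq promoters of GRCm38.p6. DESeq2 1.42.0 was an alternative, as were TMM, other filters, RUVr factors, GC offsets and leaving out each library. The fit was tested on simulated data.

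The genes named are *Crebbp* and *Ep300*, those past the adjusted threshold, the 12 of lowest p in each direction with separate groups and at least 1 CPM, the 8 of largest fold change with at least 0.5 CPM, up to 5 per list of lowest p under 0.05, a fixed set of clock and activity genes, the 5 of lowest p within 10 Mb of *Crebbp* and the 5 of lowest interaction p. The members and lists were chosen with earlier results of these data known. The exact permutation test over 3 against 3 libraries cannot go below p = 0.1 and was not used for single values. Not every gene that this rule names is reported here.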

Additional observations from a re-analysis of the deposited data

Results flagged for a closer look

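In groups of 4 libraries, gene levels were looked at for a library that stood apart from the other 3. Of 70 such groups 10 held one, all in RNA-Seq 2 and none in the MWM libraries, whose groups of 3 were not looked at. Chance also sets some groups apart. In CBP KIX/KIX homecage replicate 3, *Fos* had 116.9 CPM against 1.83 to 4.76 CPM in the other 3, *Fosb* 104.0 against 6.11 to 8.52, *Junb* 201.0 against 26.2 to 33.1 and *Egr1* 440.4 against 45.8 to 81.0. In the same library *Egr2* had 39.87 CPM against 0.305 to 0.877, *Arc* 615.5 against 53.0 to 77.6, *Npas4* 131.0 against 5.52 to 9.92, *Nr4a1* 320.8 against 29.9 to 47.1 and *Per2* 40.53 against 34.8 to 35.5. In WT CFC replicate 2, *Fos* had 24.91 CPM against 33.1 to 33.9 in the other 3. Homecage medians of the activity lists and of the ribosomal protein genes are therefore given with and without CBP KIX/KIX homecage replicate 3. The cause was not tested.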

How the results depend on the processing

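The count of genes at an adjusted p under 0.05, 2 in the report by edgeR, was 43 with DESeq2, 4 without a filter on low counts, 1 with at least 1 CPM in 3 libraries (*Papss2* lost), 0 with all 9 libraries of RNA-Seq 1, 4 with 1 RUVr factor, 56 with 2 RUVr factors, 6 with a choroid plexus score as covariate and 0 to 5 when 1 library was left out. It was 2 with TMM and with GC offsets and 3 with the legacy quasi-likelihood fit. With the replicate number as a block it was 0. Same-numbered libraries correlated at −0.0258, −0.0117 and −0.183 in their deviations, so the numbers do not pair the libraries. DESeq2 and the fit with 2 RUVr factors shared 31 genes, 72.1% of the former and 55.4% of the latter, and both held *Slc25a34* and *Papss2*. DESeq2 gave no adjusted p for 8680 genes.

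At an unadjusted p under 0.05, the count of lower genes (1153) was 1765 without a filter, 685 with at least 1 CPM, 755 with all 9 libraries and 2130 with 2 RUVr factors. The count of higher genes (1089) was 557 with all 9 libraries and 1841 with 2 RUVr factors. TMM gave 955 lower and 1249 higher. The interaction count stayed at 0 in every setting run.

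The share of the same sign after CFC was 91% for the 100 genes of lowest p and 78.2% for 500. The homecage share ranged from 59% to 71% when 1 library was left out. Log2 fold changes under alternatives were counted for *Crebbp*, *Ep300*, *Slc25a34*, *Papss2* and the fixed set of clock and activity genes. Of these 391 values, 3 reversed, 6 passed the threshold and 9 no longer did. The other named genes were not in this count. Leaving out 1 library gave −0.20 to 0.0209 for *Crebbp* (positive without WT replicate 2), −0.26 to 0.019 for *Egr1* (positive without CBP KIX/KIX replicate 2) and −0.031 to 0.58 for *Npas4* (negative without WT replicate 1). The causes were not tested.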
